A study of Mus musculus with 2 samples.

Results

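The genes described here are the cytoplasmic ribosomal protein genes, 86 of the 32285 genes counted in single cells of whole mouse embryos at embryonic day 9.5, in 2 libraries. They were taken by symbol: Rpl or Rps followed by a number, Rplp0 to Rplp2, and Rpsa, leaving out the Rps6k kinases and symbols with a hyphen, which are 5 pseudogenes here. Of these 86, 77 encode a protein of the standard cytoplasmic ribosome (31 of the small and 46 of the large subunit) and are called the core genes here. Another 7 are paralogs of core genes (Rpl3l, Rpl10l, Rpl22l1, Rpl36al, Rpl39l, Rps27l and Rps27rt). The remaining 2, Rpl7l1 and Rps19bp1, carry a ribosomal protein symbol but are not proteins of the mature ribosome, so the label does not hold for them. The rule also misses ribosomal protein genes with other names, of which Fau and Rack1 are given beside the members.

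One library is of wild-type embryos. The other is of Usb1-null embryos, which carry a germline knockout of Usb1 made with CRISPR/Cas9 guide RNAs and were obtained by crossing heterozygous mice. Usb1 encodes an exonuclease that matures U6 small nuclear RNA, part of the core of the spliceosome, and the comparison asks how cells of the embryo fare without it. Both were made with the 10x Genomics 3′ kit, which tags every captured RNA molecule with a barcode of its own, so that molecules (UMIs, unique molecular identifiers) rather than reads are counted, near the 3′ end of the transcript. The sources used here do not give the strain or how many embryos went into a library. With 1 library per group there is no replicate check, and what differs below differs between these 2 libraries. Ranges in parentheses after a ratio or share are 95% intervals that cover counting error alone.

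The wild-type library kept 15161 of 15162 barcodes and 21732106 UMIs, and the Usb1-null library kept 13018 of 13034 barcodes and 33383886 UMIs. The Usb1-null library was deeper per cell, with a median of 2299.5 UMIs against 1243 in wild-type. The libraries shared 61 barcodes. Usb1 itself was counted 68 times in the wild-type and 47 times in the Usb1-null library (3.13 and 1.41 CPM, that is UMIs scaled to a library of 1000000), a ratio of 0.450 (0.303 to 0.662), and whether the remaining reads lie outside the deleted part was not tested. Xist, made in female cells, had a level of 2451 CPM in the wild-type library against 0.779 in the other, and the Y-linked gene Uty of 0.138 against 353 CPM, so sex and genotype cannot be told apart. The labels call the molecule nuclear RNA while the protocol describes whole single cells.

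The ribosome builds every protein of the cell. Its small subunit reads the messenger RNA and its large subunit joins the amino acids, and each holds one copy of most of its proteins, so their genes are usually expressed together and at high level in every cell type. Their messenger RNAs are short, are made from compact genes and begin with a terminal oligopyrimidine (TOP) tract, a run of C and T letters at the very 5′ end through which the mTOR pathway and the protein Larp1 set their translation. Loss of 1 copy of several of these genes causes Diamond-Blackfan anaemia in humans, a failure of red cell production.

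The TOP tract is the sequence feature these genes are best known to share, so the starts of those with the longest runs are shown. RefSeq promoter windows of GRCm38.p6, which run from 250 bases before to 50 bases after the annotated start, were matched by symbol for 66 of the 86 members (78 windows, since 10 members have more than 1 start). Each line below gives 30 bases on the strand of the gene, 5′ to 3′, of which 12 lie before the start. Capitals mark the longest run of C and T that reaches within 5 bases of the start. These are the 6 core genes with the longest run that lies wholly in the printed stretch, together with Rpl22l1 and Rplp2, which are described further on.
Rpl27a, chr7:109519183-109519212, plus strand: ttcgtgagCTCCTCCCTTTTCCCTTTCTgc
Rpl35, chr2:39005114-39005143, minus strand: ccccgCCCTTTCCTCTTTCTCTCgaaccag
Rpl15, chr14:18270969-18270998, minus strand: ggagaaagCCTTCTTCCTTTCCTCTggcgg
Rpl13a, chr7:45128728-45128757, minus strand: accctgcgacaagaCCTCCTCCTTTCCCag
Rpl14, chr9:120571505-120571534, plus strand: cgggCCCTCTCTCTTCTCgctgagcgccgc
Rpl35a, 1 of 3 starts, chr16:33056470-33056499, plus strand: gggcttgCCTTCCTCTTTCCgccatcttgg
Rpl22l1, chr3:28805496-28805525, plus strand: cggcgcaagcccgTTCTCTTCCCacggctg
Rplp2, chr7:141447639-141447668, plus strand: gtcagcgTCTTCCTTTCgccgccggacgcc
A run of at least 10 C or T letters that reached within 5 bases of the annotated start was found in 18 of 78 member windows (23.1%) and in 5.10% of all 32851 windows. The letters CCGGAAG, the core that ETS family factors bind, stood on either strand of 27 member windows (34.6%) and of 8.86% of all windows. Neither feature went with the size of the difference between the libraries. The 17 core genes with such a run had a median log2 ratio (Usb1-null over wild-type, 1 CPM added to both) of −0.51, and the 40 with a window but no run had −0.50. The 24 core genes with CCGGAAG had a median of −0.53, against −0.48 for the 33 without it. Annotated starts vary by some bases, so a window without a run says only that these letters are not there.

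Ribosomal protein UMIs made up a smaller share of the Usb1-null library. The 86 members together held 564347 UMIs in wild-type cells, which was 2.60% of the library (2.59 to 2.60), and 606820 UMIs in Usb1-null cells, which was 1.82% (1.81 to 1.82). The ratio of these shares, Usb1-null over wild-type, was 0.70 (0.697 to 0.703). Every cell of both libraries held at least 1 UMI of a member. In the middle cell, members took 2.59% of the UMIs in wild-type (quartiles 2.01 and 3.40) and 1.77% in Usb1-null (1.39 and 2.30), so the quartile ranges overlapped. Counted as molecules rather than as a share, the median cell had more of them in the Usb1-null library, 41 UMIs against 33 (1.24 times as many), while its total was 1.85 times as high.

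The median share of members fell as UMIs per cell rose, up to 5000 UMIs in wild-type cells and throughout in the Usb1-null library, and so the size of the difference depended on which cells were set side by side. Among wild-type cells the median share was 3.45% at 500 to 1000 UMIs per cell, 2.57% at 1000 to 1500, 2.20% at 1500 to 2000 and 1.96% at 2000 to 3000. The Usb1-null medians in the same ranges were 3.23%, 2.36%, 2.02% and 1.68%. Both libraries were well filled between 1500 and 2000 UMIs, with 2804 wild-type and 2588 Usb1-null cells. There the members held 2.34% and 2.12% of the UMIs, a ratio of 0.905 (0.898 to 0.913), or 9.45% lower. These are upper-range cells of the wild-type library and lower-range cells of the Usb1-null library. The summed ratio was 0.922 (0.907 to 0.937) at 500 to 1000 UMIs, 0.848 (0.842 to 0.855) at 2000 to 3000, 0.742 (0.735 to 0.75) at 3000 to 5000 and 0.660 (0.648 to 0.672) above 5000, where the wild-type library had only 84 cells. It was below 1 in all 6 ranges. How much of the difference over all cells goes with depth and how much with genotype cannot be told apart with 1 library each. The range of 1500 to 2000 UMIs was chosen after the data were seen, and values in it (matched depth) are given below for most lists and most named members.

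**Figure D1:**
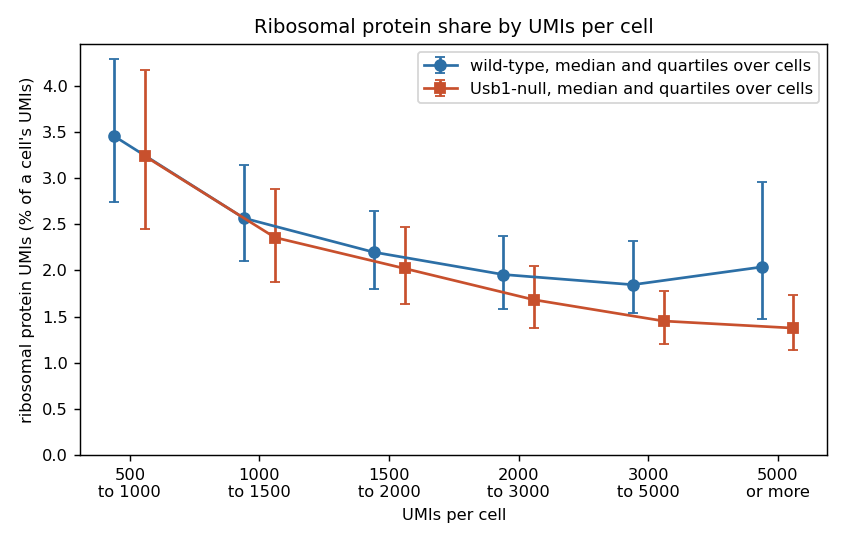
Share of a cell's UMIs held by the 86 members (vertical axis, %) in 6 ranges of UMIs per cell (horizontal axis), with circles for wild-type and squares for Usb1-null medians and bars for quartiles over cells. Both lines fall from above 3% in the shallowest cells and the wild-type line turns up in the last range, on 84 cells. The Usb1-null medians lie below the wild-type ones in every range, and the gap is 0.177 percentage points at 1500 to 2000 UMIs and 0.662 above 5000.

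Transcripts of the mitochondrial genome moved the same way. Its 13 measured genes, 11 of them lower in Usb1-null cells, held 0.435% of wild-type and 0.191% of Usb1-null UMIs, a ratio of 0.439 (0.434 to 0.443), and the ratio was 0.501 (0.488 to 0.513) in cells with 1500 to 2000 UMIs. In the other direction, Gm42418 and AY036118, genes that overlap ribosomal RNA and were looked at after their values were seen, were together 4.81 times as high in the Usb1-null library (4.77 to 4.84), and 6.53 times (6.42 to 6.64) in those cells. A list of 5 RNAs kept in the nucleus, Malat1 among them, also chosen after values were seen, had a summed ratio of 0.995 (0.991 to 1.00) over all cells, with 2 of 5 lower, and of 0.803 (0.793 to 0.813) in cells with 1500 to 2000 UMIs. The part of any of these in the lower member share was not tested.

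Gene by gene, nearly all members were lower. Of the 83 members with at least 20 UMIs over both libraries, 82 had a lower CPM in Usb1-null cells, against 48.7% of the 18921 genes with as many UMIs. The counting interval lay below 1 for 79 of the 83, against 25.7% of all genes, and above 1 for 0 members, against 25.5% of all genes. On the log2 scale with 1 CPM added, 66 members were at least 20% lower (13.6% of all genes) and 0 at least 25% higher (15.5% of all genes). These limits, which are equal steps up and down in log2, are meant wherever 20% lower or 25% higher is written below. Among abundant genes, those with at least 3000 UMIs, 65 of 80 members were 20% lower against 9.44% of 4609 genes, and 79 of 80 were lower by any amount against 49.4%. Short genes were lower more often in general, as 62.1% of the 3536 other genes that span under 10 kb and have at least 100 UMIs were lower, 30.1% by at least 20%, while 15.2% were 25% higher. The median log2 ratio was −0.50 over the members and 0.01 over all genes with at least 20 UMIs.

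At matched depth fewer members were lower and more were higher. In cells with 1500 to 2000 UMIs, 58 of 83 members were lower in Usb1-null, against 48.4% of the 14649 genes with at least 20 UMIs in those cells. Members at least 20% lower numbered 11, against 17.0% of all genes. At least 25% higher were 3 members, against 21.3% of all genes. All genes here include those with as few as 20 UMIs, whose ratios counting error carries past either limit more easily. Abundant genes were not set apart in these cells, so the shares do not show whether members changed less often than genes in general. The whole counting interval lay below 1 for 42 members, against 16.5% of all genes, and above 1 for 8 members, against 18.1% of all genes. The median over core genes moved from −0.51 to −0.13, and their range from −1.10 to −0.05 over all cells became −1.08 to 0.39. Yet the core genes kept much of their order. Between the cells with 1500 to 2000 UMIs and all the other cells, which have no cell in common, Spearman's rho of the 77 log2 ratios was 0.89 (Pearson 0.89), a description over genes of the same pair of libraries.

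**Figure D2:**
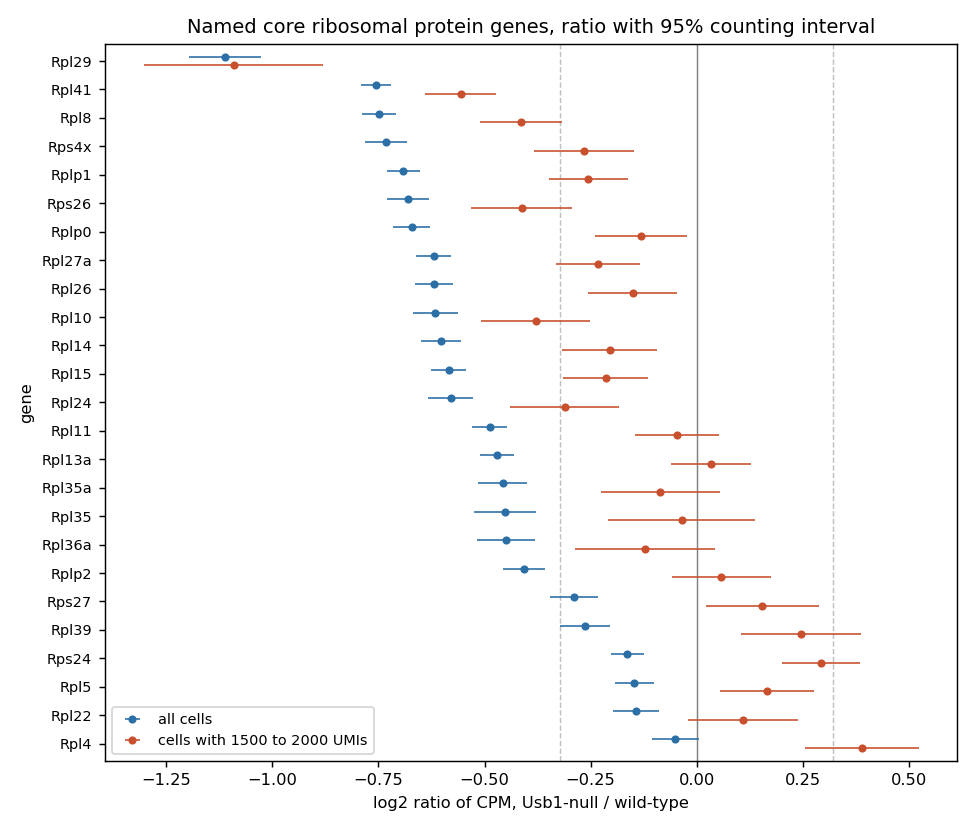
Log2 ratio of CPM, Usb1-null over wild-type (horizontal axis), for the 25 core genes named in the text (vertical axis, ordered by the value over all cells), with 95% counting intervals, over all cells (blue) and over cells with 1500 to 2000 UMIs (red). Dashed lines mark 20% lower and 25% higher. All 25 blue points and 17 of the red points lie left of 0, and Rpl29 is leftmost and Rpl4 rightmost at both settings.

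Both subunits were lower to a like degree. The 31 small subunit genes together went from 10980 to 7595 CPM (ratio 0.692, interval 0.688 to 0.696), and all 31 were lower, 24 of them by 20%. The 46 large subunit genes together went from 14585 to 10229 CPM (ratio 0.701, interval 0.698 to 0.705), with all 46 lower and 40 by 20%. Of all genes, 48.7% were lower and 13.6% lower by 20%. In cells with 1500 to 2000 UMIs the ratios were 0.890 (0.878 to 0.902) for the small and 0.911 (0.900 to 0.921) for the large subunit. There 23 of 31 small subunit and 33 of 46 large subunit genes were lower, against 48.4% of all genes. The counting interval lay below 1 for 18 small and 24 large subunit genes (16.5% of all genes) and above 1 for 3 of each (18.1% of all genes). Per gene, core CPM ranged from 125 to 628 in wild-type (median 322) and from 57.8 to 469 in Usb1-null cells (median 219.7). UMIs read at the 3′ end count captured molecules and are not scaled by length, so levels of different genes are not compared.

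Rpl29 (ENSMUSG00000048758, chr9:106429454-106431568), a large subunit protein, was the furthest from the rest. Gene positions here and below are those of GENCODE M21 on GRCm38. It was counted 2717 times in wild-type and 1930 times in the larger Usb1-null library, 125 against 57.8 CPM, a ratio of 0.462 (0.436 to 0.490). Matched depth left it where it was, at 126 and 59.1 CPM with a ratio of 0.469 (0.405 to 0.543). It was lower in all 17 clusters compared below. Like most members it has processed pseudogene copies, and whether reads were split between them was not tested.

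Rpl41 and Rpl8, also among the lowest, shared this direction at both settings. Rpl41 (ENSMUSG00000093674, chr10:128548114-128549305) encodes the smallest ribosomal protein, a short peptide. It had 628 and 371 CPM, with ratios of 0.592 (0.578 to 0.606) over all cells and 0.680 (0.641 to 0.721) in cells with 1500 to 2000 UMIs. Rpl8 (ENSMUSG00000003970, chr15:76904078-76906314), a large subunit protein near the catalytic centre, had 482 and 286 CPM, with ratios of 0.595 (0.579 to 0.612) and 0.751 (0.702 to 0.803). Both were lower in 17 of 17 clusters, and neither interval reached 1 at either setting.

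At the other end were members close to 1 over all cells. Among those with at least 1000 UMIs the 5 highest were Rpl7l1, Rpl4, Rpl22l1, Rps27l and Rpl22, only 2 of which are core genes. Rpl4 (ENSMUSG00000032399, chr9:64173375-64178666), a large subunit protein that lines the exit tunnel for the new protein, had 201 against 194 CPM. Its ratio of 0.966 (0.929 to 1.00) was the only core value whose interval reached 1, and at matched depth it was higher in Usb1-null cells, with 172 and 225 CPM and a ratio of 1.31 (1.19 to 1.44). Rpl7l1 (ENSMUSG00000063888, chr17:46773907-46782672), which is not a ribosomal protein, had 61.2 and 62.6 CPM (ratio 1.02, interval 0.955 to 1.10), and 1.16 (0.982 to 1.38) at matched depth, and was lower in 7 of 17 clusters. Rpl22, a large subunit protein on the outer surface, had 220.2 and 199 CPM (ratio 0.906, interval 0.873 to 0.940), and 1.08 (0.986 to 1.18) at matched depth. Rps19bp1, a partner of Rps19 that is not part of the ribosome either, had 15.9 and 12.1 CPM. Its ratio at matched depth was 0.925 (0.643 to 1.33).

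In all, 6 of the 77 core genes had a counting interval above 1 in cells with 1500 to 2000 UMIs, a smaller share than the 18.1% of all genes, and they were picked for this after their values were seen. Besides Rpl4 these included Rps24, Rps27, Rpl39 and Rpl5. Rps24, a small subunit protein mutated in Diamond-Blackfan anaemia, was at 424 and 378 CPM over all cells, a ratio of 0.893 (0.869 to 0.917), and at 370.4 and 454 CPM in those cells, a ratio of 1.22 (1.15 to 1.31). Rps27, also of the small subunit, had 0.818 (0.787 to 0.851) over all cells and 1.11 (1.02 to 1.22) at matched depth. These genes were thus lower over all cells and higher at matched depth.

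The P stalk, the flexible arm of the large subunit that recruits translation factors, is built on Rplp0 with Rplp1 and Rplp2 attached. The 3 genes together were lower, with a ratio of 0.655 (0.643 to 0.667) over all cells and 0.912 (0.875 to 0.951) at matched depth. They did not move as one. Rplp1 (ENSMUSG00000007892, chr9:61913284-61914542) went from 486 to 301 CPM (ratio 0.619, interval 0.603 to 0.637), and Rplp0 (ENSMUSG00000067274, chr5:115559467-115563727) from 378 to 238 CPM (ratio 0.628, interval 0.608 to 0.647). Rplp2 (ENSMUSG00000025508, chr7:141447370-141451585) went from 278 to 209 CPM (ratio 0.754, interval 0.729 to 0.781), an interval that does not meet those of Rplp0 and Rplp1. At matched depth Rplp1 stayed lower at 0.838 (0.785 to 0.894), Rplp0 was at 0.913 (0.847 to 0.984), and Rplp2 was at 1.04 (0.960 to 1.13).

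Rpl5 and Rpl11 join 5S ribosomal RNA in a particle that, when ribosome assembly fails, binds Mdm2 and stabilises p53. Rpl11 (ENSMUSG00000059291, chr4:136028265-136053428) went from 413 to 295 CPM (ratio 0.713, interval 0.693 to 0.734), and was at 0.968 (0.904 to 1.04) at matched depth. Rpl5 (ENSMUSG00000058558, chr5:107900502-107909005) went from 297 to 268 CPM (ratio 0.903, interval 0.875 to 0.933), and was at 1.12 (1.04 to 1.21) at matched depth. The ratio of Rpl5 was thus above that of Rpl11 at both settings, with intervals that did not overlap. Rpl5 was lower over all cells and higher at matched depth, where the interval of Rpl11 held 1. Both were lower over all cells, Rpl11 in 17 and Rpl5 in 14 of 17 clusters.

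In a list of 10 large subunit genes, most of them for proteins around the mouth of the exit tunnel, all were lower. Of these, 7 were lower by 20% (48.7% of all genes were lower and 13.6% by 20%). The summed ratio of the list was 0.745 (0.736 to 0.754), and 0.952 (0.926 to 0.979) at matched depth. Rpl26, where new chains emerge, had 367 and 239 CPM (ratio 0.651, interval 0.631 to 0.672). Rpl24, in the list though its protein does not sit at the tunnel mouth, had 256 and 171 CPM (ratio 0.669, interval 0.645 to 0.694). The ratios of Rpl26 and Rpl24 at matched depth were 0.901 (0.837 to 0.969) and 0.806 (0.738 to 0.880). The mouse counterparts of 19 Diamond-Blackfan anaemia genes were all lower, 13 of them by 20% (again beside 48.7% and 13.6% of all genes), with a median log2 ratio of −0.45 beside −0.51 over the core genes. At matched depth that median was −0.08, beside −0.13, and the summed ratio of the list went from 0.739 (0.733 to 0.745) to 0.963 (0.946 to 0.981). Rps26 was the lowest of these, at 312 and 194 CPM with a ratio of 0.624 (0.603 to 0.645), and 0.751 (0.691 to 0.816) at matched depth.

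Of the members, 4 lie on chromosome X, where the libraries also differ in sex. Together they had a ratio of 0.685 (0.671 to 0.698), beside 0.698 (0.695 to 0.700) for the 73 autosomal core genes, and at matched depth 0.897 (0.857 to 0.940) beside 0.902 (0.894 to 0.910). Rps4x (ENSMUSG00000031320, chrX:102184941-102189394), the X-linked copy of a small subunit protein, went from 322 to 194 CPM (ratio 0.602, interval 0.582 to 0.623), and had 0.832 (0.767 to 0.902) at matched depth. Rpl10 (ENSMUSG00000008682, chrX:74270812-74273135), which completes the large subunit late in its assembly, went from 266 to 174 CPM (ratio 0.652, interval 0.629 to 0.677), and had 0.769 (0.704 to 0.841) at matched depth. Rpl36a (ENSMUSG00000079435, chrX:134585654-134588062) had 146 and 107 CPM (ratio 0.732, interval 0.698 to 0.768), and 0.920 (0.820 to 1.03) at matched depth, where the interval held 1. Rpl39 (ENSMUSG00000079641, chrX:37082520-37085402), a small protein of the exit tunnel, had 189 and 158 CPM (ratio 0.833, interval 0.80 to 0.868), and 1.19 (1.08 to 1.31) at matched depth. The 4 X-linked ratios thus lie within the range of the autosomal genes.

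Over all cells, paralogs were less reduced than most core genes, with the exception of Rpl36al. Rpl36al (ENSMUSG00000049751, chr12:69182731-69184083), an autosomal copy of Rpl36a, went from 105 to 71.5 CPM (ratio 0.681, interval 0.642 to 0.721), and its ratio of 0.952 (0.829 to 1.09) at matched depth had an interval that held 1. Rpl22l1 (ENSMUSG00000039221, chr3:28805436-28807424), the partner of Rpl22, went from 169 to 158 CPM (ratio 0.939, interval 0.900 to 0.980), and was higher at matched depth, at 1.22 (1.10 to 1.34). Rps27l (ENSMUSG00000036781, chr9:66946086-66949516), a p53-responsive copy of Rps27, had 45.6 and 42.5 CPM, with ratios of 0.931 (0.858 to 1.01) and 1.27 (1.05 to 1.55). Rps27rt, which is nearly identical to Rps27 and therefore uncertain, had 6.12 and 6.05 CPM.

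Because a paralog takes the place of its partner in some ribosomes, the share of each within its pair was followed too. Rpl22l1 made up 43.4% (42.3 to 44.4) of the UMIs of Rpl22 and Rpl22l1 in wild-type cells against 44.2% (43.4 to 45.1) in Usb1-null, and Rps27l made up 18.1% (17.1 to 19.1) and 20.1% (19.2 to 21.1) of its pair with Rps27. Rpl36al held 41.8% (40.5 to 43.1) and 40.0% (38.8 to 41.3) of its pair with Rpl36a. The intervals overlapped for Rpl22l1 and Rpl36al and lay apart by a narrow margin for Rps27l. Across clusters the Rpl22l1 share was highest in primitive erythroid-like cells in wild-type among clusters with over 100 UMIs of the pair, at 51.0% (45.6 to 56.3), and stood at 52.6% (45.3 to 59.7) there in Usb1-null cells, where cluster 8 was highest with 53.2% (48.6 to 57.7).

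The 3 members with under 20 UMIs are tissue-restricted paralogs, and were close to absent. Rpl3l, the heart and skeletal muscle copy of Rpl3, had 5 UMIs among wild-type and 13 among Usb1-null cells, with 0 in the cardiomyocyte-like cluster of either library. Rpl10l, the testis copy of Rpl10, had 0 UMIs in wild-type, which allows up to 0.138 CPM (3 counts), and 3 in Usb1-null cells (0.0899 CPM, interval 0.0185 to 0.263). Rpl39l, a copy best known from the testis, had 0 UMIs in either library, which allows up to 0.138 and 0.0899 CPM.

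Cells were grouped into 19 clusters with the members left out of the genes used, and the 17 of at least 100 cells per library were compared. The summed member share was lower in Usb1-null cells in all 17, with counting intervals below 1 throughout. Ratios ran from 0.651 (0.644 to 0.658) in the forebrain and midbrain-like cluster to 0.773 (0.761 to 0.787) in cluster 8, around a median of 0.710. In cells with 1500 to 2000 UMIs, 16 of 17 ratios were below 1, 15 of them with the whole interval, and the median was 0.895. They ran there from 0.665 (0.627 to 0.705) in primitive erythroid-like cells, on 44 and 45 cells, to 1.02 (0.925 to 1.12) in cluster 15, on 25 and 21 cells. The mitochondrial genome share was lower in all 17 clusters as well, and its ratio lay below the member ratio in 16 of them.

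Clusters differed in how much of their RNA was ribosomal protein transcript, and in like order in both libraries (Spearman's rho 0.91, Pearson 0.97, n = 17 clusters, which also differ in depth). Cluster 8, an unnamed group with the fewest UMIs per cell of the 17 (medians 730 and 1155), had the highest share, 4.03% in wild-type and 3.12% in Usb1-null. Primitive erythroid-like cells, the first red cells of the embryo, came next with 3.79% and 2.74%. The shares of the other 15 clusters lay between 2.11% and 2.85% in wild-type and between 1.42% and 1.91% in Usb1-null. Cluster 9, ventral neural tube-like cells and cardiomyocyte-like cells were lowest in wild-type, at 2.11%, 2.12% and 2.12%. Of the core genes, 62 of 77 were lower in every one of the 17 clusters. How many of all genes were was not counted, so this number is not set against genes in general. The small yolk sac endoderm and liver-like cluster, with 50 and 46 cells, was below the minimum for comparison. Its values were 2.67% and 2.97%, a ratio of 1.11 (1.04 to 1.19), and its mitochondrial ratio was 4.91.

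**Figure D3:**
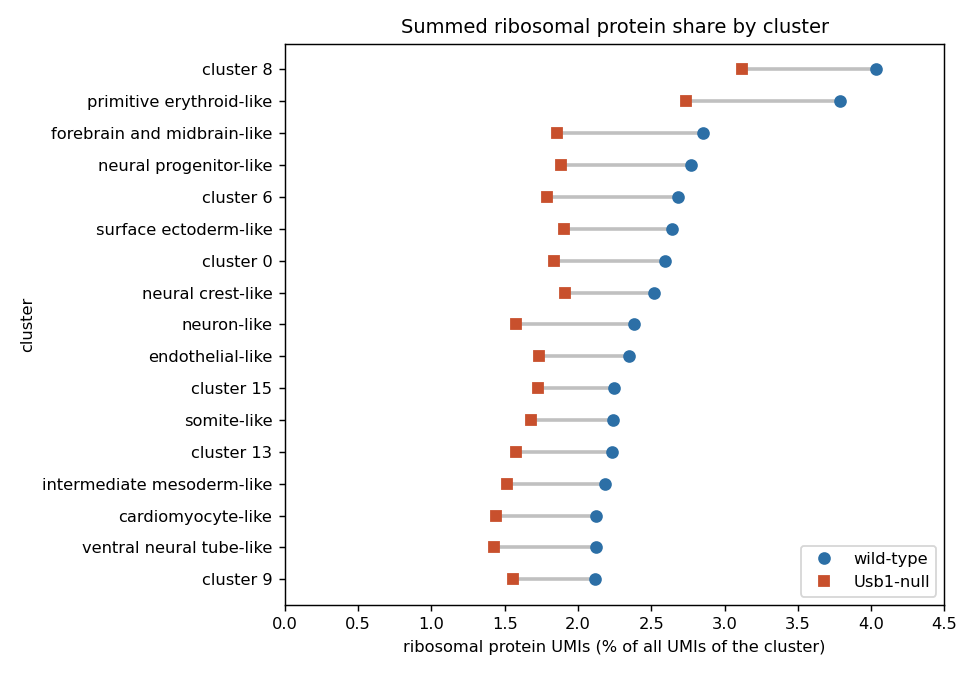
Ribosomal protein UMIs as % of all UMIs of a cluster (horizontal axis) for the 17 compared clusters (vertical axis, ordered by the wild-type value), with circles for wild-type and squares for Usb1-null. Every square lies left of its circle, and cluster 8 and primitive erythroid-like cells lie right of the other 15 clusters in both libraries.

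The mix of ribosomal protein transcripts varied little between clusters. As a share of the summed member UMIs, with both libraries pooled, the highest cluster was over the lowest by 1.28-fold for the median core gene. The ordering of clusters was only loosely shared by the libraries, with a median Spearman's rho of 0.30 over core genes (range −0.43 to 0.72, above 0 for 64 of 77). Among members with at least 1000 UMIs, Rpl36al, Rpl7l1, Rps27l, Rplp0 and Rpl22 had the widest range in this pooled measure, which also moves with the share of each library in a cluster. The ends of the Rps27l range rest on few UMIs, 3 and 11 in cluster 15 and 5 and 18 in intermediate mesoderm-like cells of the wild-type and Usb1-null libraries. Rplp0 was highest in primitive erythroid-like cells, at 1.87% (1.71 to 2.04) of member UMIs in wild-type and 1.59% (1.35 to 1.85) in Usb1-null, the highest in either library. Its lowest values were 0.994% (0.723 to 1.33), in cluster 15 of the wild-type library, and 1.09% (0.835 to 1.39), in neuron-like cells of the Usb1-null library. Rpl22 was highest in intermediate mesoderm-like cells in both libraries, at 1.03% (0.736 to 1.41) and 1.32% (1.03 to 1.67). Its share was higher in Usb1-null than in wild-type cells in 17 of 17 clusters, while its CPM was lower in Usb1-null in 14 of them. A share of member UMIs rises where a gene is reduced less than the other members. The lowest shares of Rpl22 were 0.566% (0.405 to 0.770), in cluster 13 of the wild-type library, and 0.793% (0.692 to 0.903), in cluster 8 of the Usb1-null library. Rpl36al had 0.564% (0.478 to 0.660) and 0.583% (0.497 to 0.679) in cluster 8, the highest value in wild-type, while primitive erythroid-like cells were highest in Usb1-null with 0.595% (0.454 to 0.765). Its lowest values were 0.215% (0.133 to 0.328), in neuron-like cells of the wild-type library, and 0.345% (0.287 to 0.411), in cluster 6 of the Usb1-null library.

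**Figure D4:**
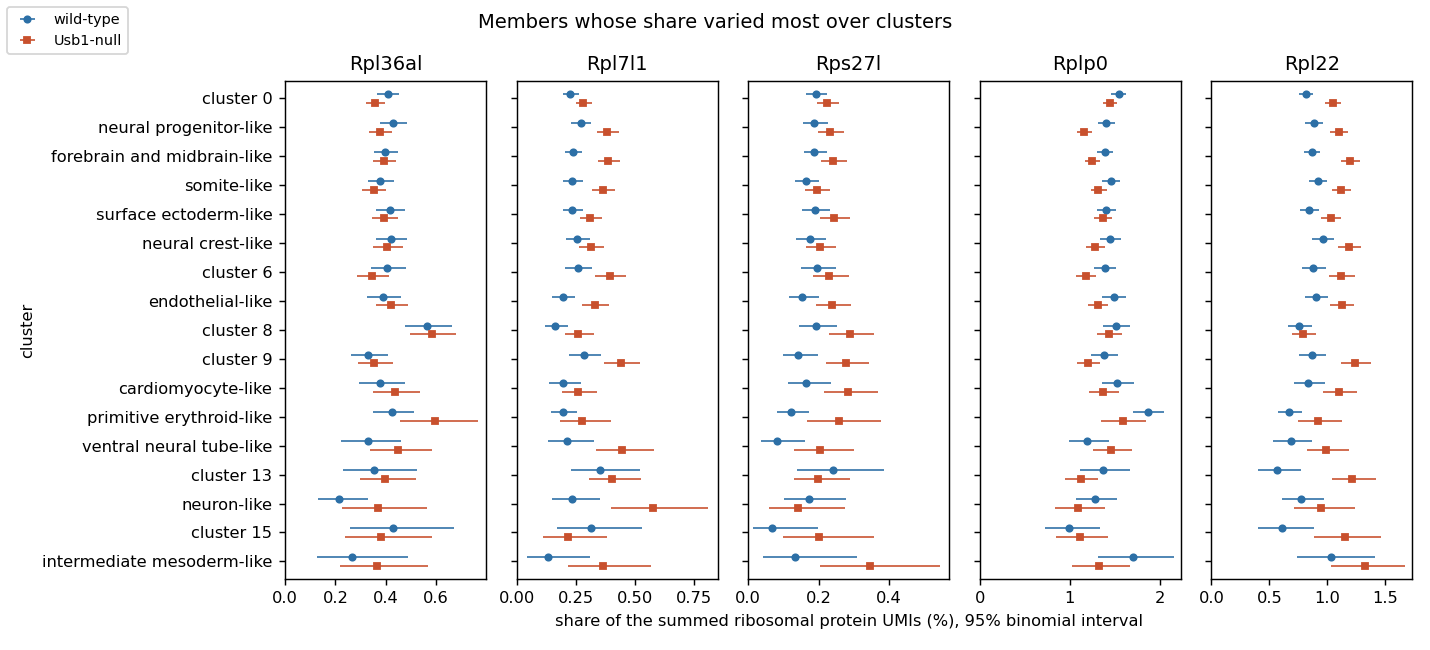
Share of the summed ribosomal protein UMIs (horizontal axes, %, with 95% binomial intervals) held by Rpl36al, Rpl7l1, Rps27l, Rplp0 and Rpl22 in 17 clusters (vertical axis), with circles for wild-type and squares for Usb1-null. Rplp0 is furthest right in primitive erythroid-like cells in wild-type, and the Rpl22 square lies right of its circle in all 17 clusters.

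Transcript composition went with the size of the difference. Over the 77 core genes, Spearman's rho between the log2 ratio and the mean GC content of the gene's protein-coding transcripts was −0.45 (Pearson −0.46), with no test, since genes of 1 pair of libraries are not replicates. The 26 core genes of lowest GC (41.3% to 49.7%) had a median log2 ratio of −0.42, the middle 26 had −0.51 and the 25 of highest GC (54.6% to 60.8%) had −0.59. The same relation was seen outside the members, with rho −0.30 over 13100 other genes and −0.24 over the 2705 of these that span under 10 kb. Other genes with at least 100 UMIs that span under 5 kb had a median log2 ratio of −0.16 and those of 30 to 100 kb had 0.04. Of the core genes, 73 span under 10 kb, and their median was −0.52. The 325 other genes that span under 10 kb and have at least 3000 UMIs had a median of −0.24, with 247 of them lower.

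Outside the rule, Fau, which encodes a small subunit protein, went from 321 to 189.7 CPM (ratio 0.590, interval 0.570 to 0.611) and Rack1, a scaffold on the small subunit, from 317 to 209.6 CPM (ratio 0.661, interval 0.639 to 0.683). At matched depth their ratios were 0.758 (0.699 to 0.823) for Fau and 0.852 (0.786 to 0.923) for Rack1. Of the 78 mitochondrial ribosomal proteins, encoded in the nucleus, 67 were lower and 37 by 20%, beside 48.7% and 13.6% of all genes. Their median log2 ratio was −0.30. At matched depth their median was −0.11, close to the −0.13 of the core genes, and their summed ratio 0.916 (0.893 to 0.940). Mrps12 was lowest, at 43.8 and 21.7 CPM, and Mrpl38 followed at 69.5 and 39.3 CPM. The 35 ribosome biogenesis factors had a median of −0.02, with 19 lower and 4 lower by 20%, shares near the 48.7% and 13.6% of all genes. Only 1 of the 35 was higher by 25%, a smaller share than the 15.5% of all genes. Their summed ratio went from 0.966 (0.958 to 0.974) over all cells to 1.06 (1.04 to 1.08) at matched depth. Bop1, of large subunit processing, had 46.7 and 29.2 CPM, and Nhp2, of the box H/ACA particles, 34.6 and 23.4 CPM. At matched depth the ratio of Bop1 was 0.649 (0.518 to 0.811), and that of Nhp2, 0.855 (0.666 to 1.10), had an interval that held 1.

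Among 16 other TOP messenger RNAs, 9 were lower over all cells, 7 of them by 20%, and 1 was 25% higher. Of all genes, 48.7% were lower, 13.6% lower by 20% and 15.5% higher by 25%. The median log2 ratio of the 16 was −0.22. The direction turned at matched depth, where the median was 0.06 and the summed ratio went from 0.916 (0.908 to 0.924) to 1.05 (1.03 to 1.08). Eef1d, an exchange factor of elongation factor 1, was lowest at 180.4 and 99.3 CPM, and Eif2s3x, an X-linked subunit of initiation factor 2, had 88.1 and 58.2 CPM. The 6 non-coding TOP RNAs that host small nucleolar RNAs split, with Gas5 at 952 and 716 CPM (ratio 0.752, interval 0.738 to 0.766), and Snhg6 at 41.1 and 59.5 CPM (ratio 1.45, interval 1.34 to 1.57). Their summed ratio turned as well, from 0.839 (0.828 to 0.850) over all cells to 1.07 (1.04 to 1.10) at matched depth. The 16 mTOR and TOP regulators had a median of 0.01, a summed ratio of 0.957 (0.944 to 0.969) over all cells and 0.970 (0.941 to 1.00) at matched depth, and over all cells 2 that were 20% lower and 2 that were 25% higher, near the 13.6% and 15.5% of all genes. Rps6kb2, a kinase of Rps6, had a ratio of 0.613 (0.533 to 0.704), and 0.729 (0.517 to 1.02) at matched depth, where the interval held 1. Myc, a driver of ribosome production, had 9.34 and 14.5 CPM (ratio 1.56, interval 1.32 to 1.84), and 1.75 (1.17 to 2.63) at matched depth.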

How the data were processed

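The authors deposited UMI counts per gene and barcode for each library, not normalised, with 1 file set per library. The matrix headers name Cell Ranger 6.1.2, the submitters' processing notes name 2.1.1 and the genome mm10. The sources used here give neither the annotation nor the treatment of intronic reads. Cells with 200 to 6000 genes and under 30% mitochondrial UMIs were kept, the filter the study states, which leaves more wild-type and fewer Usb1-null cells than the study used. UMIs were summed per library and cluster and given as CPM, and log2 ratios had 1 CPM added to both values. Ratios carry exact conditional binomial intervals and shares Clopper-Pearson intervals (SciPy 1.17.1), which cover counting error only. No test was run, because each group is 1 library.

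Cells were clustered in Scanpy 1.11.5 on 3038 variable genes, of which 0 were members, leaving out ribosomal protein, mitochondrial, Xist, Tsix and Y-linked genes. The steps were 30 principal components, a Harmony correction rewritten in NumPy 2.4.6, 15 neighbours and Leiden resolution 0.4. Names ending in "-like" needed at least 3 raised markers, 1 of them among the 10 leading genes, with no other list ahead, a rule tightened after the clusters were seen. They were rebuilt here and may differ from the study's. Scrublet doublets (6.76% of wild-type and 4.30% of Usb1-null cells) were kept, and left out in an alternative. Coordinates, spans and GC content came from GENCODE M21 (GRCm38), in which 86 of 86 members were found. Members were named if they were among the 5 highest or lowest ratios or the 5 widest over clusters (at least 1000 UMIs), were in the P stalk, 5S RNP or paralog lists, or were X-linked, and other lists gave the 2 genes with the largest change (at least 100 UMIs). For the members and lists, and this rule, earlier results of these data were known. Results for some genes that this rule names are not reported here. The computations were tested on simulated data.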

Additional observations from a re-analysis of the deposited data

How the results depend on the processing

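All alternatives kept the summed share lower in the Usb1-null library, by different amounts. From a log2 ratio of −0.51 it became −0.49 with all deposited barcodes, −0.50 with the median of all genes set to 0, −0.50 with clusters weighted by their wild-type shares and −0.50 without primitive erythroid-like cells. It became −0.38 with at least 1000 genes per cell, −0.37 with cells thinned to 1000 UMIs, −0.38 with the median of short other genes set to 0 (a shift of −0.13) and −0.14 in cells with 1500 to 2000 UMIs. The median member log2 ratio of −0.50 became −0.36, −0.37, −0.37 and −0.12 under these last 4. The difference of cell medians of −0.813 percentage points became −0.478 with at least 1000 genes, −0.500 when thinned and −0.177 in cells with 1500 to 2000 UMIs. Members at least 20% lower, 66 of 83, numbered 45 with at least 1000 genes, 43 when thinned, 49 with short genes at 0 and 11 in cells with 1500 to 2000 UMIs, where 3 were at least 25% higher. The other alternatives left the count between 64 and 66, with 0 higher. Thinning dropped cells under 1000 UMIs, leaving 10188 wild-type and 12406 Usb1-null cells.

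Lower clusters numbered 15 of 15 when thinned, 21 of 21 at Leiden resolution 0.8 and 17 of 17 without Harmony. Some members changed sign. Rpl22l1 had a log2 ratio of 0.038 with at least 1000 genes per cell and 0.021 when thinned, and Rpl5 had 0.020 when thinned. Rpl4 went from −0.05 to 0.11, 0.09 and 0.39, and Rps27l from −0.10 to 0.02, 0.25 and 0.34, with at least 1000 genes, when thinned and in cells with 1500 to 2000 UMIs. In cells with 1500 to 2000 UMIs the values were 0.058 for Rplp2, 0.24 for Rpl39, 0.16 for Rpl5, 0.11 for Rpl22 and 0.28 for Rpl22l1. The cause was not tested. Scaling to short genes, leaving out cluster 8 and the range of 1500 to 2000 UMIs were chosen after seeing the data.

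No paired analysis was possible because each group has a single library, and leaving out a library would end the comparison. Genotype cannot be told apart from depth, sex or any other difference between the libraries.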
